A study of Mus musculus with 6 samples.

Results

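The 36 genes described here encode aminoacyl-tRNA synthetases, 20 of them the cytosolic enzymes and 16 the mitochondrial enzymes, whose symbols end in 2. They were taken by name, as a family chosen with earlier results of these data known, from the 40914 genes with read counts in whole islets. All 36 were found under the older symbols of the deposited table (*Gars* for the gene now also called *Gars1*, for example), and all 36 passed the filter on low counts, with 132 to 8419 reads per gene and library.

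RNA was sequenced from whole islets of wild type (WT) mice and of *Akita* mice, which carry 1 normal *Ins2* allele and 1 allele with the C96Y change (Ins2 WT/C96Y) that makes proinsulin misfold. Each genotype had 3 libraries, called WT1, WT2 and WT3 and AK4, AK5 and AK6 here, and each library was made from 120 ng of RNA of the islets of 3 mice aged 19 to 21 days. By the study's methods the *Akita* line is on the C57BL/6J background and the *Akita* mice analyzed were males. Islets of both genotypes spent a night in medium with 11.1 mmol/l glucose and 10% serum before RNA was taken, so every value is of islets after culture and not as taken from the animal. Libraries held 22069554 to 27043169 reads in genes. No source used here gives separate culture or preparation days, so the p-values measure the spread between these pooled samples.

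Aminoacyl-tRNA synthetases attach each amino acid to its own tRNAs, the step that fixes the reading of the genetic code before the ribosome is reached. They fall into class I and class II by the fold of the catalytic site, and several cytosolic enzymes sit together in a multisynthetase complex held by scaffold proteins. Mitochondria use a separate set of nuclear-encoded enzymes to translate the few proteins of the mitochondrial genome. When uncharged tRNAs accumulate, or when misfolded proteins burden the endoplasmic reticulum, kinases phosphorylate the initiation factor eIF2α, and the translation of the transcription factor ATF4 increases. ATF4 binds C/EBP-ATF response elements near genes of amino acid supply, and many cytosolic synthetase genes are commonly counted among its targets, whereas the mitochondrial ones mostly are not.

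The promoters are shown first because the letters searched in them include those that ATF4 binds. RefSeq promoter sequence (GRCm38.p6) from 250 bases before to 50 bases after the start site was matched for 27 of the 36 genes, 13 cytosolic and 14 mitochondrial. *Cars*, *Hars*, *Lars*, *Nars*, *Rars*, *Vars*, *Wars*, *Hars2* and *Pars2* had no entry. The start site used lay 5229 bases from the 5′ end of the gene in the deposited table for *Tars2*. This distance was 698 bases for *Aars*, 299 for *Qars* and 232 for *Fars2*, and at most 177 for the other genes matched. The core of the C/EBP-ATF response element, TGATGNAA or TTNCATCA on the other strand, was present in 5 of the 13 cytosolic promoters (38.5%) and in 0 of the 14 mitochondrial ones, and 4.06% of all 27025 promoters of this length held it. The 5 promoters are printed 5′ to 3′ on the strand of the gene, from 150 bases before the start site to base 25 after it, with the core in capitals.
*Aars*, alanine, chr8:111033692-111033866, plus strand: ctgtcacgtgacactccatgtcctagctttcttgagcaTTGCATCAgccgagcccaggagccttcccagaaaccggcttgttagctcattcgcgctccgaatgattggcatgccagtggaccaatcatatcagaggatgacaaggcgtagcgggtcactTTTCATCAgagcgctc
*Gars*, glycine, chr6:55037851-55038025, plus strand: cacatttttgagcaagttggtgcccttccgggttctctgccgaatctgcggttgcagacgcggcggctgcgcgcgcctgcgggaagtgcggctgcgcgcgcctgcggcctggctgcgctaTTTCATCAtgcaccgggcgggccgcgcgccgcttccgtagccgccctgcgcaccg
*Iars*, isoleucine, chr13:49681980-49682154, plus strand: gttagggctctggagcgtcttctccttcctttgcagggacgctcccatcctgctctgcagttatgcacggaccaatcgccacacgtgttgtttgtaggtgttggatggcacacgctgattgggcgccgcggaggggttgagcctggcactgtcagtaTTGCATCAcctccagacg
*Tars*, threonine, chr15:11399634-11399808, minus strand: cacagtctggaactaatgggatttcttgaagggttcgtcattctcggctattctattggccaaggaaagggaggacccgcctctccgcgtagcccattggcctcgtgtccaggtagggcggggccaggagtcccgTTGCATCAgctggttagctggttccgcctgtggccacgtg
*Yars*, tyrosine, chr4:129189753-129189927, plus strand: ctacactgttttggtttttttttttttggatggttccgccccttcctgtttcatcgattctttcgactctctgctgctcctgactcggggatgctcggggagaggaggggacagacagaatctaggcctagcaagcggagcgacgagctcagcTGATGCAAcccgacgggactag

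With the first transcribed base counted as 1, the first base of the core lay at −112 and at 10 in *Aars*, at −30 in *Gars*, at 8 in *Iars*, at −15 in *Tars* and at 4 in *Yars*. Only the *Yars* core read TGATGNAA along the strand of the gene, and the other 5 were on the opposite strand. The E-box CACGTG, the letters bound by MYC and its relatives, was in 4 of 13 cytosolic promoters (*Aars*, *Farsb*, *Iars* and *Tars*) and in 1 of 14 mitochondrial ones (*Ears2*), against 7.24% of all promoters. TGACGTG, the core of the element bound by XBP1 and ATF6, was in the *Eprs* promoter alone among the 27 and in 1.99% of all promoters. The palindromic motif of NRF1, a factor of nuclear genes for mitochondrial proteins, was in none of the 27 and in 0.977% of all promoters. All 4 motifs were searched on both strands and no match in these genes overlapped another. A match is a description of letters and does not show that a factor was bound in these islets.

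The cytosolic genes were read at far higher levels than the mitochondrial ones. Levels between genes are given as CPM (reads of the gene scaled to a fixed library size of 1000000) per kilobase of annotated exon in WT, for which the median was 24.05 over the 20 cytosolic genes and 2.59 over the 16 mitochondrial genes. *Gars*, which encodes both the cytosolic and the mitochondrial glycyl-tRNA synthetase, was the highest of the 36. Its level was 86.3, 97.5 and 94.0 CPM per kb in WT1, WT2 and WT3, above all libraries of *Nars* (asparagine), which came next with 53.4 ± 1.72 CPM per kb (SD, n = 3). *Sars* (serine) with 48.8 ± 2.14 CPM per kb and *Wars* (tryptophan) with 45.9 ± 5.01 CPM per kb followed, and their order lay within their spread. *Cars* (cysteine) was the lowest cytosolic gene, at 9.01 ± 0.624 CPM per kb.

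**Figure D1:**
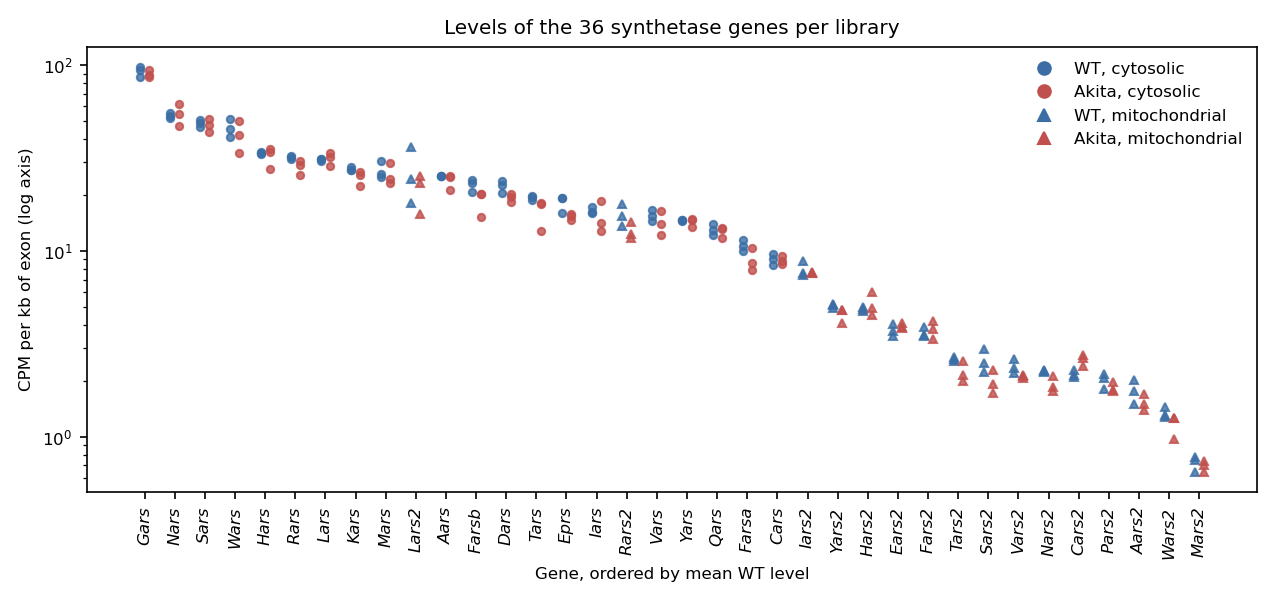
Level of each of the 36 genes in CPM per kb of exon (log axis), 1 point per library, in order of the mean WT level; circles are cytosolic and triangles mitochondrial genes, blue WT and red *Akita*. *Gars* leads at 92.6 CPM per kb in WT, *Lars2* and *Rars2* are the mitochondrial genes among the cytosolic ones, and *Mars2* is lowest at 0.723.

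Of the mitochondrial genes, *Lars2* (leucine) and *Rars2* (arginine) lay among the cytosolic ones, at ranks 10 and 17 of 36. *Lars2* had 26.3 ± 9.18 and *Rars2* 15.7 ± 2.19 CPM per kb in WT, while the other 14 mitochondrial genes had 7.96 CPM per kb (*Iars2*) or less. *Mars2* (methionine) was the lowest gene of all, at 0.723 ± 0.0679 CPM per kb. Over the 17 pairs of a cytosolic and a mitochondrial gene for the same amino acid, the WT level of the cytosolic gene was 1.18 to 37.7 times that of its partner, with a median of 6.49. The pair for leucine was the closest and the pairs for methionine (37.7), tryptophan (34.1) and asparagine (23.6) were the farthest apart. The leucine ratio and the rank of *Lars2* rest on counts that ran from 202 to 402 CPM in WT. The part of ribosomal RNA in these counts, raised below, was not tested. In *Akita* islets the ratios ran from 1.47 for leucine to 37.0 for methionine. The lengths are unions of all annotated exons, so a gene with long alternative exons, such as *Eprs* at 18.1 kb, comes out lower per kb than its main transcript would. *Mars2* was also long, at 11.3 kb beside 3.42 kb for *Mars*, and its rank and the methionine ratio depend on this length. Before division by length, *Mars2* had 8.16 ± 0.766 CPM in WT, above *Pars2* with 6.23 ± 0.594 CPM. In 13 of the 36 genes some exon bases lie opposite exons of another gene, over 5% of them in 6 genes and the most, 24.2%, in *Iars2*, mainly opposite *Rab3gap2*. On the same strand, *Aars* shares 14.3% of its exon bases with *Exosc6*.

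No synthetase gene differed between *Akita* and WT islets past the threshold. In the limma-voom fit over 15407 genes, 0 of the 20 cytosolic and 0 of the 16 mitochondrial genes were called at an adjusted p under 0.05, where 249 genes, or 1.62% of all genes tested, were called (0.759% higher and 0.857% lower). Limma-trend, the other method run, also called 0 of the 36. At an unadjusted p under 0.05 the fit picked 2 synthetase genes with lower values, *Eprs* and *Dars*, and 1 with higher values, *Cars2*, against 8.88% of all genes tested lower and 9.81% higher. The fold changes were small and mostly below 0. The median log2 fold change of *Akita* over WT was −0.11 for the cytosolic set, with 18 of 20 genes below 0, and −0.16 for the mitochondrial set, with 12 of 16 below 0, beside −0.0011 over all genes tested. The difference between these medians was not tested, since the members were chosen with earlier results of these data known.

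**Figure D2:**
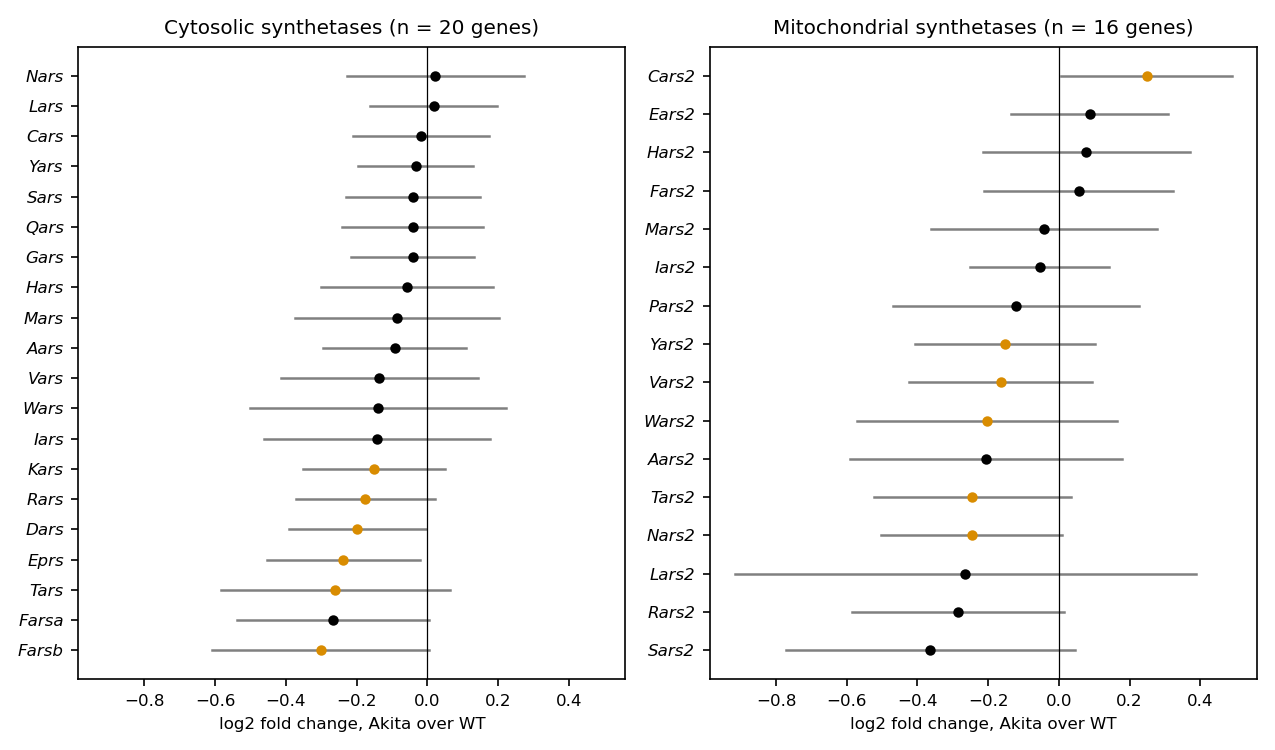
Log2 fold change of *Akita* over WT (point) with its 95% confidence interval from limma (line) for the 20 cytosolic and the 16 mitochondrial genes; orange points mark genes whose 3 WT and 3 *Akita* libraries did not overlap. In 30 of the 36 genes the point lies below 0, and 33 of the 36 intervals hold 0.

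The intervals bound what these libraries allow. Over the cytosolic genes the highest upper bound of a 95% interval was 0.27 on the log2 scale (*Nars*), a 1.21-fold higher level, and the lowest lower bound was −0.61 (*Farsb*), 0.656 times the WT level. In 19 of the 20 cytosolic genes the whole interval lay within 1.5-fold of WT in either direction. The mitochondrial genes had mostly wider intervals, of which 12 of 16 lay within 1.5-fold. Most of them had fewer reads, but *Lars2*, with 4380 to 8304 reads per library, had the widest interval. That of *Rars2*, with 888 to 1202 reads, also reached beyond 1.5-fold. A p that misses the threshold does not show that the levels were equal.

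*Eprs* encodes the bifunctional enzyme that charges both glutamate and proline tRNAs, and it had the lowest p of the 36 genes. *Eprs* (ENSMUSG00000026615, chr1:185363044-185428360) had 289, 348 and 349 CPM in WT1 to WT3 and 279, 267 and 287 CPM in AK4 to AK6. Every *Akita* library was below every WT library, though AK6 and WT1 nearly met. The log2 fold change was −0.24 (95% interval −0.45 to −0.019), with a limma adjusted p of 0.236.

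For *Dars*, the aspartate enzyme, every *Akita* library was again below every WT library. *Dars* (ENSMUSG00000026356, chr1:128363707-128417368) had 89.4, 103 and 98.6 CPM in WT and 79.8, 88.4 and 85.5 CPM in *Akita* libraries. WT1, the lowest WT library, stood close to AK5, the highest *Akita* library. The log2 fold change was −0.20 (−0.39 to −0.0040), with a limma adjusted p of 0.260.

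The 2 subunits of the cytosolic phenylalanine enzyme, *Farsa* and *Farsb*, had the lowest fold changes of the cytosolic set. *Farsb* had 54.5, 63.4 and 60.8 CPM in WT and 52.9, 39.9 and 53.1 CPM in *Akita* libraries, a log2 fold change of −0.30 (−0.61 to 0.0054, limma adjusted p = 0.275). *Farsa* had 52.3, 45.6 and 48.1 CPM in WT and 46.9, 35.97 and 39.2 CPM in *Akita* libraries, a log2 fold change of −0.27 (−0.54 to 0.0060, limma adjusted p = 0.278). In both subunits AK5 was the lowest library, and for *Farsa* AK4 lay within the WT range. The exons of *Farsb* share 9.47% of their bases with *Sgpp2* on the opposite strand, and the library kit does not keep strand, so reads there cannot be assigned to either gene.

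The 2 cytosolic genes above 0 were *Lars* and *Nars*, which charge leucine and asparagine. *Lars* had 164 to 168 CPM in WT and 171, 154 and 180 CPM in AK4, AK5 and AK6 (log2 fold change 0.018, limma adjusted p = 0.930). *Nars* had 225, 240 and 232 CPM in WT and 269, 205 and 239 CPM in *Akita* libraries (0.023, limma adjusted p = 0.935). In both genes AK4 lay above the WT range and AK5 below it.

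*Gars*, the most abundant member, had 269, 304 and 293 CPM in WT and 271, 277 and 293 CPM in *Akita* libraries, so that the *Akita* values fell wholly inside the WT range. Its log2 fold change was −0.042 (−0.22 to 0.13, limma adjusted p = 0.812). *Cars*, the least abundant cytosolic gene per kb, had 63.2, 55.0 and 59.6 CPM in WT and 61.6, 55.9 and 58.2 CPM in *Akita* libraries, again inside the WT range.

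The 6 cytosolic genes without overlap between the genotypes, all with *Akita* below WT, were *Dars*, *Eprs*, *Farsb*, *Kars*, *Rars* and *Tars*, and 12.2% of all genes tested had this order. Of the 6, *Dars*, *Eprs*, *Kars* (lysine) and *Rars* (arginine) encode members of the multisynthetase complex. Over all 8 complex members the median log2 fold change was −0.15, with 7 below 0 and *Lars* above. Cytosolic class I genes had a median of −0.11 and class II genes of −0.12, with 9 of 10 genes below 0 in each. *Gars* and *Kars*, whose genes also make the mitochondrial enzyme, had log2 fold changes of −0.042 and −0.15.

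One *Akita* library carried most of the cytosolic shift. The summed level of the 20 genes was 2750, 2827 and 2785 CPM in WT1 to WT3 and 2751, 2358 and 2699 CPM in AK4 to AK6. AK4 was at the level of WT1, AK6 lay slightly below the WT range and AK5 stood apart. AK5 was the lowest of the 6 libraries in 17 of the 20 cytosolic genes, while it was the lowest in 19.5% of all genes tested. Relative to the WT mean of each gene, the median over the set was 0.0078 in AK4, −0.27 in AK5 and −0.056 in AK6 on the log2(CPM + 0.5) scale. Without AK5 the median log2 fold change of the cytosolic set was −0.022, and without AK4 it was −0.16.

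**Figure D3:**
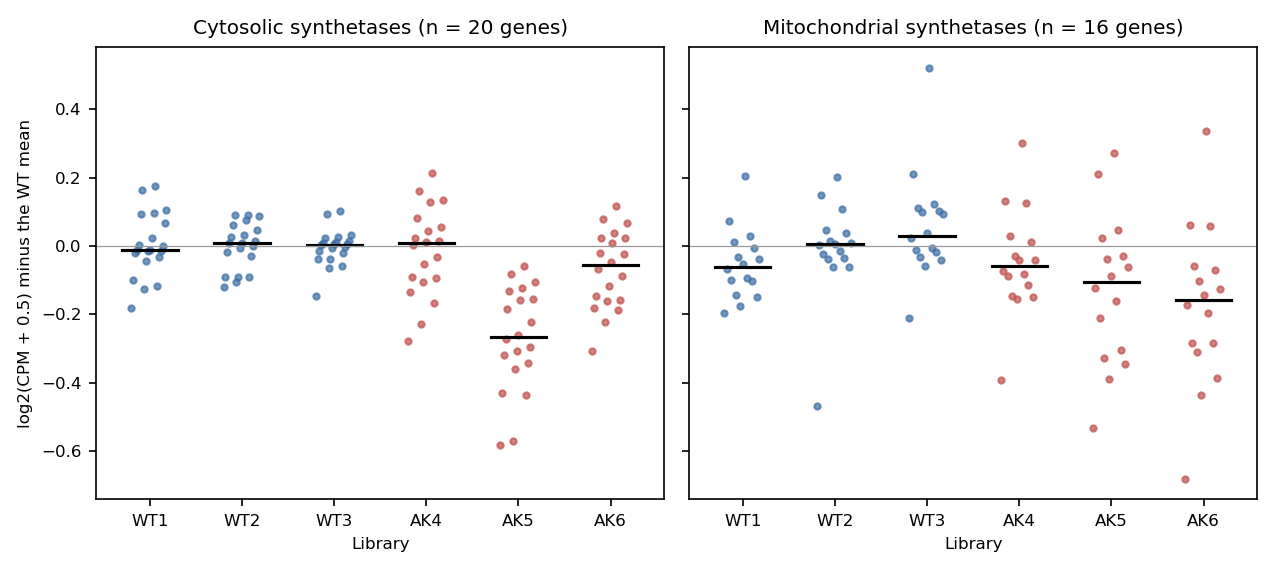
Log2(CPM + 0.5) of each synthetase gene in each library minus the mean of the gene over the 3 WT libraries, with the median of the set as a black bar; blue points are WT and red points *Akita* libraries. The cytosolic bar stands at −0.27 in AK5 and near 0 in AK4, and the mitochondrial bars lie at −0.057, −0.11 and −0.16 in AK4, AK5 and AK6, with WT1 at −0.060 level with AK4.

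AK5 also differed in its markers of other cell types. Its summed α-cell marker level (7 genes, glucagon included) was 60829 CPM, the highest of the 6, where WT libraries had 26986 to 42045 CPM and AK4 and AK6 had 38928 and 56351 CPM. Its acinar marker sum was the lowest, at 347 CPM, close to the 394 CPM of WT2, which had the highest cytosolic synthetase sum. AK5 was also highest in the sum of the 2 PP-cell markers, with 8579 CPM against 4385 to 5283 CPM in WT, and lowest in that of the 6 macrophage markers, with 75.2 CPM against 140 to 230.3 CPM in WT. The part of these differences in the level of the synthetase genes was not tested.

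Among the mitochondrial genes AK5 and AK6 lay below the WT libraries and AK4 did not. The set median relative to the WT mean was −0.060, 0.0049 and 0.030 in WT1, WT2 and WT3, and −0.057 in AK4, −0.11 in AK5 and −0.16 in AK6. AK6 held the lowest value of the 6 libraries in 6 of 16 genes, and in 16.2% of all genes tested. Without AK6 the median log2 fold change of the mitochondrial set was −0.088. Class I had a median of −0.15 and class II of −0.21. In 5 genes every *Akita* library was below every WT library (*Nars2*, *Tars2*, *Vars2*, *Wars2* and *Yars2*), against 12.2% of all genes tested, and in 1 gene, *Cars2*, every *Akita* library was above, against 13.2%.

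*Cars2*, the mitochondrial cysteine enzyme, was the only member with an interval above 0. *Cars2* (ENSMUSG00000056228, chr8:11514021-11550771) had 16.6, 15.1 and 15.6 CPM in WT and 17.3, 19.1 and 20.04 CPM in *Akita* libraries. All 3 *Akita* libraries exceeded the highest WT library, AK4 by a narrow margin. The log2 fold change was 0.25 (0.0070 to 0.49), with a limma adjusted p of 0.258, and 5.83% of its exon bases lie opposite exons of *Naxd*.

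*Ears2*, the mitochondrial glutamate enzyme, had the next lowest p among the genes above 0. *Ears2* had 17.97, 19.1 and 20.9 CPM in WT and 21.1, 19.9 and 20.2 CPM in *Akita* libraries, whose range overlapped the WT range (log2 fold change 0.088, limma adjusted p = 0.670). Its cytosolic counterpart is *Eprs*, with −0.24.

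*Sars2*, the mitochondrial serine enzyme, had the lowest fold change of all members, on few reads. *Sars2* had 7.41, 8.22 and 9.83 CPM in WT and 7.56, 5.68 and 6.33 CPM in *Akita* libraries, a log2 fold change of −0.36 (−0.77 to 0.046, limma adjusted p = 0.318). AK4 lay inside the WT range and the other *Akita* libraries below it. Its cytosolic counterpart *Sars*, with 252, 262 and 240 CPM in WT and 245, 225 and 263 CPM in *Akita* libraries, had −0.041.

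*Nars2* and *Rars2*, for asparagine and arginine, had the lowest p of the mitochondrial genes below 0. *Nars2* had 15.6 to 15.9 CPM in WT and 14.8, 12.3 and 12.9 CPM in *Akita* libraries (log2 fold change −0.25, limma adjusted p = 0.285). *Rars2* had 37.6, 49.7 and 43.0 CPM in WT and 32.7, 34.2 and 39.5 CPM in *Akita* libraries (−0.29, limma adjusted p = 0.288), where AK6 lay above WT1. The cytosolic counterpart of *Rars2*, *Rars*, had 101, 105 and 103 CPM in WT and 93.6, 82.3 and 98.2 CPM in *Akita* libraries (−0.17, limma adjusted p = 0.316).

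*Lars2* was the most abundant mitochondrial member and the most variable within a genotype. *Lars2* (ENSMUSG00000035202, chr9:123366940-123462664) had 270, 202 and 402 CPM in WT and 282, 257 and 174 CPM in *Akita* libraries, and the groups overlapped. The log2 fold change of −0.26 had an interval of −0.92 to 0.39, the widest of the 36 (limma adjusted p = 0.661). *Gm42418*, a gene on chromosome 17 that holds ribosomal RNA sequence and was picked after its values were seen, had 610, 524 and 860 CPM in WT and 707, 671 and 487 CPM in *Akita* libraries. Both genes were highest in WT3 and lower in WT2 and AK6 than in the other 4 libraries, and the part of ribosomal RNA in the *Lars2* counts was not tested. Because *Lars2* made up a large share of the mitochondrial reads, the summed level of the 16 genes, 549, 508 and 696 CPM in WT and 563, 528 and 449 CPM in *Akita* libraries, followed it. Without *Lars2* the sums were 279, 306 and 294 CPM in WT and 281, 271 and 274 CPM in *Akita* libraries, which overlapped.

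*Mars2* and its cytosolic counterpart *Mars*, the pair with the widest gap in level per kb of exon, both had fold changes near 0. *Mars2* had 7.30, 8.43 and 8.76 CPM in WT and 8.32, 7.92 and 7.33 CPM in *Akita* libraries (−0.042, limma adjusted p = 0.904). *Mars* had 105, 85.5 and 89.2 CPM in WT and 102, 79.5 and 83.2 CPM in *Akita* libraries (−0.086, limma adjusted p = 0.758). The 2 genotypes overlapped for both. *Mars* exons share 1.99% of their bases with *Ddit3*, a gene of the stress response on the opposite strand.

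The fold changes of the 2 compartments were also set side by side by amino acid. In 10 of the 17 pairs both genes had the same sign and in 7 they had opposite signs. The opposite pairs were those for cysteine, glutamate, histidine, leucine and asparagine and both subunits of the phenylalanine enzyme beside *Fars2*, whose log2 fold change was 0.056. *Pars2*, the mitochondrial proline enzyme, had −0.12 beside −0.24 for *Eprs*. No difference within a pair was tested.

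Genes around the synthetases were compared in the same fit. Of the 3 scaffold proteins of the multisynthetase complex, 0 passed the test and all 3 were below 0. *Eef1e1*, which anchors synthetases in the complex, had 20.8, 25.04 and 22.8 CPM in WT and 17.0, 15.9 and 19.6 CPM in *Akita* libraries, with no overlap (log2 fold change −0.39, −0.67 to −0.11, limma adjusted p = 0.154). Of 12 other genes of tRNA charging, editing and export, 0 passed, 8 were above 0 and the median was 0.019. Among them *Xpot*, the exportin that carries tRNAs out of the nucleus, had 103, 103 and 94.1 CPM in WT and 134, 118 and 142 CPM in *Akita* libraries, with every *Akita* library above every WT library (log2 fold change 0.39, 0.18 to 0.60, limma adjusted p = 0.0849). *Qrsl1*, a subunit of the amidotransferase that makes glutamine-charged tRNA in mitochondria, had −0.30 (limma adjusted p = 0.276).

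The elongation factors, which use the charged tRNAs, gave 0 of 6 cytosolic and 0 of 4 mitochondrial genes past the threshold. The cytosolic factors had a median log2 fold change of 0.11, with *Eef1a1*, the carrier of charged tRNAs to the ribosome, at 0.17 and *Eef1d* at −0.18 (limma adjusted p = 0.262 and 0.278). All 4 mitochondrial factors were below 0, with a median of −0.16 and *Gfm1*, which moves the mitochondrial ribosome along, at −0.22 (limma adjusted p = 0.234).

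**Figure D4:**
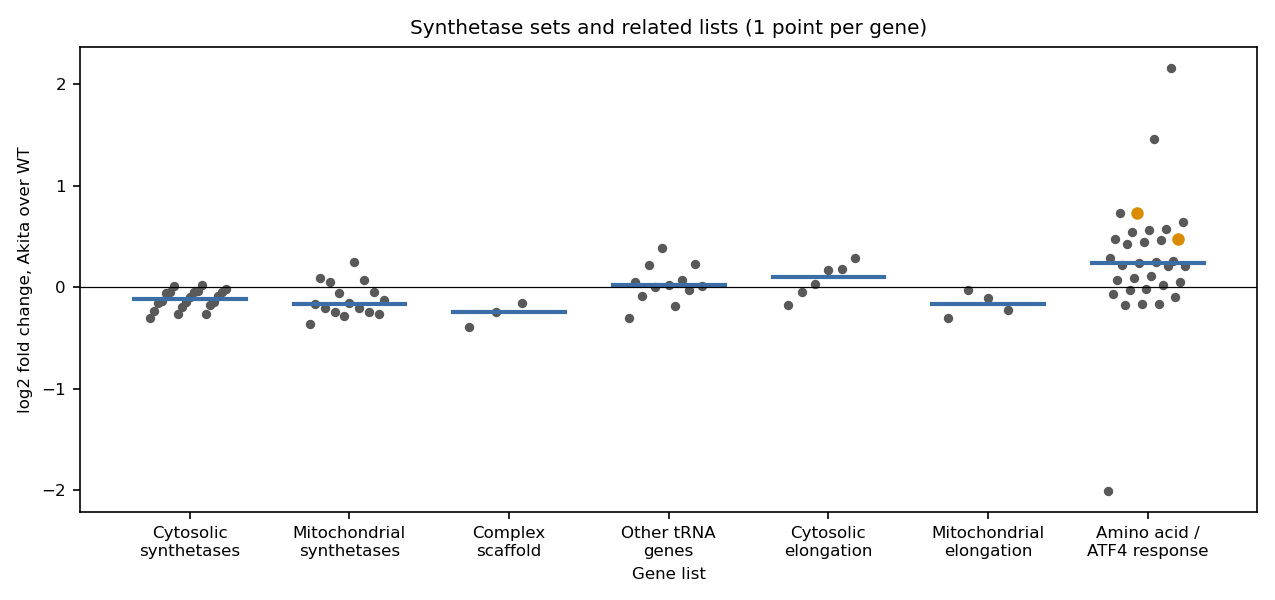
Log2 fold change of *Akita* over WT for each gene of the synthetase sets and of 5 related lists, with the median of each list as a blue bar; orange points are genes past an adjusted p of 0.05. The synthetase bars lie at −0.11 and −0.16, and the bar of the amino acid and ATF4 response list at 0.24, with *Gpt2* and *Sesn2* the genes past the threshold.

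The wider amino acid and ATF4 response, of which many cytosolic synthetase genes are usually counted a part, had its values mostly on the other side of 0. The list also holds genes upstream of ATF4 (*Eif2ak3*, *Eif2ak4* and *Gcn1l1*) and transcription factors beside enzymes and carriers. Of 33 listed genes, 25 were above 0, the median log2 fold change was 0.24, and 2 rose past the threshold, where 0.759% of all genes tested did, with 0 called lower. In 14 of the 33 every *Akita* library was above every WT library, against 13.2% of all genes tested, and at an unadjusted p under 0.05 there were 14 higher and 1 lower (*Cth*, an enzyme of cysteine synthesis, −2.002, limma adjusted p = 0.144), against 9.81% and 8.88% of all genes tested. *Gpt2*, the mitochondrial alanine transaminase, had 14.2, 14.8 and 15.6 CPM in WT and 26.1, 22.5 and 25.6 CPM in *Akita* libraries, with a wide gap between the groups. It rose by 0.73 on the log2 scale (0.49 to 0.98, limma adjusted p = 0.0315). Other enzymes and carriers of the list varied. *Slc7a11* had 1.47 and *Pycr1* 0.73 (limma adjusted p = 0.0982 and 0.135), without overlap between the genotypes. *Chac1* had 0.48, *Slc1a4* 0.47 and *Slc7a1* 0.29 (limma adjusted p = 0.121, 0.134 and 0.181), also without overlap. *Phgdh* had 0.58, *Slc7a5* 0.22 and *Asns* 0.21, each with overlap. *Mthfd2* had −0.095, *Shmt2* −0.17, *Aldh18a1* −0.014, *Psat1* 0.075, *Slc3a2* 0.050 and *Slc38a2* 0.027, each with overlap.

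*Sesn2*, a stress-induced sensor of leucine that restrains mTORC1, rose by 0.47 (0.28 to 0.66, limma adjusted p = 0.0447), from 74.4, 75.8 and 70.0 CPM in WT to 93.4, 108 and 105 CPM in *Akita* libraries. Both calls were lost when WT1, WT2, WT3, AK5 or AK6 was left out, with limma adjusted p from 0.0568 to 0.153 for *Gpt2* and from 0.112 to 0.185 for *Sesn2*, whose call was also lost without the filter on low counts (0.0621). *Atf4* itself, which is controlled largely at translation, had 431, 472 and 490 CPM in WT and 371, 371 and 515 CPM in *Akita* libraries (−0.16, limma adjusted p = 0.583).

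The 12 synthetase genes commonly listed as ATF4 targets had a median log2 fold change of −0.064, with 10 below 0 and 0 past the threshold. The 5 genes whose promoters are printed above ranged from −0.26 (*Tars*) to −0.033 (*Yars*), with *Iars* at −0.14, *Aars* at −0.092 and *Gars* at −0.042. *Aars*, with 2 cores in its promoter, had 236, 234 and 236 CPM in WT and 236, 196 and 232 CPM in *Akita* libraries. AK5 lay farthest from the WT libraries of *Aars*, and AK4 lay among them. The response list and the synthetase genes were measured in the same libraries, and the difference between them was not tested. The summed level of the response list was 2875, 2687 and 3071 CPM in WT1 to WT3 and 3347, 2815 and 3431 CPM in AK4 to AK6. AK5, the library with the lowest cytosolic synthetase sum, was the only *Akita* library within the WT range of the response sum. Within the sum, *Nupr1* alone ran from 18.7 to 229 CPM in WT and from 52.7 to 298 CPM in *Akita* libraries.

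**Figure D5:**
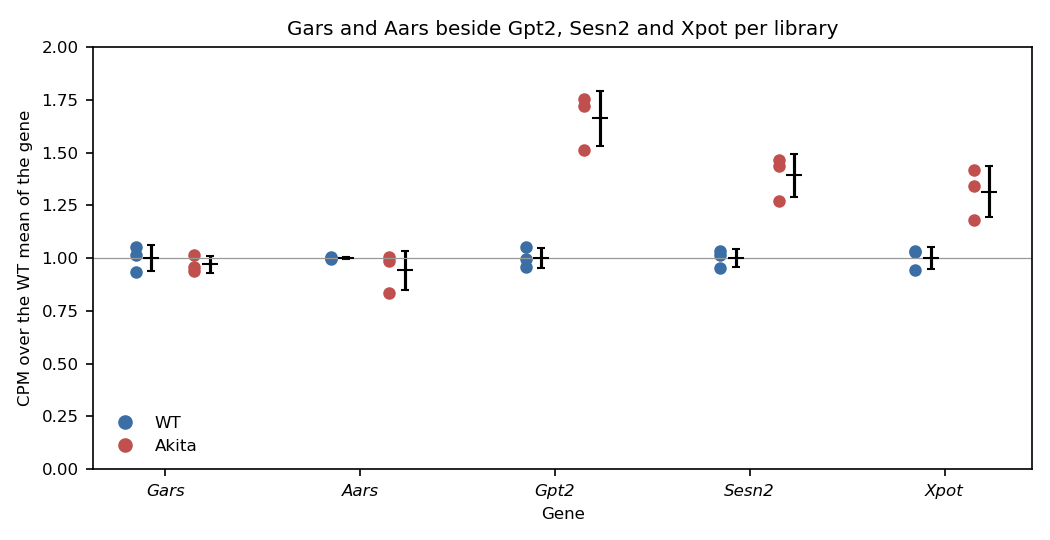
Level of *Gars*, *Aars*, *Gpt2*, *Sesn2* and *Xpot* in each library as CPM divided by the WT mean of the gene (points; blue WT, red *Akita*), with mean ± SD beside them (black, n = 3 libraries). The *Akita* points of *Gpt2*, *Sesn2* and *Xpot* lie above all WT points, and those of *Gars* and *Aars* overlap them or lie lower.

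The libraries carried the markers of islets, and some of these markers differed between the genotypes. The 2 insulin genes took 17.6 to 19.2% of the reads in WT and 11.8 to 12.6% in *Akita* libraries. *Ins2*, the gene mutated in *Akita*, fell by 0.81 on the log2 scale (limma adjusted p = 0.0332), with 125925 to 144558 CPM in WT and 66967 to 83009 CPM in *Akita* libraries, and *Ins1* had −0.49 (limma adjusted p = 0.0573). Of 10 β-cell markers 4 fell past the threshold (*Ins2*, *Mafa*, *Nkx6-1* and *G6pc2*), where 0.857% of all genes tested did. Of 7 α-cell markers 0 passed, all 7 being above 0 with a median of 0.50. The 2 PP-cell markers were above 0 with no overlap between the groups, an order that 13.2% of all genes tested had. The 6 macrophage markers were all below 0, each with overlap, and 0 of either list passed the threshold. All 7 ductal markers and 22 of 23 acinar markers were also below 0, and all 6 mesenchyme markers were above 0, with 0 past the threshold. From the RNA of whole islets alone, fewer cells of a type and less RNA per cell cannot be told apart. Acinar marker sums ran from 394 to 7721 CPM in WT and from 347 to 8398 CPM in *Akita* libraries, with 0 of 23 tested markers past the threshold. With the acinar score as a covariate the cytosolic median was −0.081 and the mitochondrial one −0.15, again with 0 genes called.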

How the data were processed

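The authors made libraries with an unstranded kit. By their processing notes and methods the authors used cutadapt 1.12 for trimming, STAR 2.5.2b for alignment (GRCm38), HTSeq 0.7.2 for gene counts and DESeq2 1.12.4 for the comparison. In the sources used here, annotation release and strand setting of the counting were not given. The deposited table holds raw read counts for 40914 of 47729 genes and a text mark in place of counts for 6815. The 6 columns of normalized counts and the columns of the authors' fold changes and p-values were not used. WT columns were matched to single samples by name, *Akita* columns (AK4 to AK6) to the genotype only.

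Counts were scaled by TMM (trimming 30% of log ratios and 5% of levels at each end; factors 0.937 to 1.09) and tested with limma-voom (R 4.3.3, limma 3.58.1; log2 CPM with a pseudocount of 0.5, two-sided) over the 15407 genes with at least 15 counts in all and, in at least 3 libraries, a CPM no lower than 10 counts would give in a library of median size. No block or covariate was used, Benjamini-Hochberg adjustment covered all genes tested, and calls were made at an adjusted p under 0.05. Rows with text marks were left out, and a count model was not used. The fit was tested on simulated data. Libraries of a genotype differed by more than sampling noise. CPM are TMM-scaled. Exon lengths and overlaps came from a GENCODE annotation of GRCm38, promoters from RefSeq (GRCm38.p6). Figures were drawn with matplotlib 3.10.9.

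The members, the companion and marker lists and the motifs were chosen with earlier results of these data known, so lists are described by counts and medians without a test. Genes named in the text were, by rule, those past the threshold, the 4 cytosolic and 2 mitochondrial genes with the lowest p in each direction, the highest and lowest per kb of exon, the outermost fold changes, their partners for the same amino acid, and of each companion list the genes that passed or had the lowest p. *Gm42418* and further genes given only as examples were chosen after their values were seen. Alternatives were other scalings, filters, thresholds, limma-trend, sample weights, an acinar covariate and leaving out each library.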

Additional observations from a re-analysis of the deposited data

How the results depend on the processing

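Over the 36 synthetase genes and 16 alternative fits, 0 of 576 estimates passed an adjusted p of 0.05, the lowest being 0.0848, and 28 had the opposite sign. At an unadjusted p under 0.05 there were 2 cytosolic genes lower and 1 mitochondrial gene higher. With library totals alone, which moved the median of all genes by 0.12 on the log2 scale, the set medians were 0.0054 (cytosolic) and −0.042 (mitochondrial), both below that shift, and the sign turned for *Aars* (0.027), *Cars* (0.10), *Gars* (0.079), *Hars* (0.062), *Mars* (0.033), *Qars* (0.078), *Sars* (0.079), *Yars* (0.087), *Iars2* (0.065) and *Mars2* (0.072), all below it too. It also turned for *Nars* with sample quality weights (−0.020) and for *Cars* with the acinar covariate (0.0058). Leaving out 1 library at a time, which leaves a genotype with 2 libraries, gave cytosolic medians of −0.16 to −0.022 and mitochondrial medians of −0.19 to −0.088, and single genes crossed 0: *Cars* (−0.070 to 0.032), *Hars* (−0.12 to 0.052), *Lars* (−0.031 to 0.081), *Mars* (−0.19 to 0.0043), *Nars* (−0.067 to 0.13), *Qars* (−0.085 to 0.017), *Sars* (−0.093 to 0.018), *Wars* (−0.27 to 0.0087), *Yars* (−0.053 to 0.013), *Fars2* (−0.027 to 0.15), *Hars2* (−0.036 to 0.17), *Iars2* (−0.10 to 0.023) and *Mars2* (−0.13 to 0.0060). The cause was not tested.

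Of the 33 genes of the amino acid and ATF4 response, 2 were called higher as reported, 4 with library totals alone, 1 without a filter on low counts, 4 with sample quality weights, 5 with the acinar covariate, 4 at an adjusted p under 0.10, and 0 to 3 when 1 library was left out. The unadjusted threshold of 0.05 gave 14 higher and 1 lower in this list. Over all genes, 249 were called as reported, 571 with library totals alone, 586 with quality weights, 744 at an adjusted p under 0.10 and 0 to 584 without 1 library. No paired analysis was possible because columns AK4, AK5 and AK6 could not be matched to single *Akita* samples, which the labels number 1 to 3 like the WT samples. Apart from *Lars2*, the widest intervals of the 36 were those of *Sars2*, *Aars2* and *Wars2*, each on 258 reads or fewer per library.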
